A study of Mus musculus with 40 samples.

Results

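The regions described here are PU.1 peaks of mouse macrophages, chosen by the positions of called peaks: each shared at least 1 bp with a SMARCA5 peak and no base with any CTCF or C/EBPb peak, on chromosomes 1 to 19 and X. The rule found 17677 of the 67674 PU.1 peaks on these 20 chromosomes, or 26.1% (95% Wilson interval 25.8 to 26.5, counting error only). They made up 52.7% of the 33517 PU.1 peaks that overlapped SMARCA5. Among the 45939 PU.1 peaks with neither CTCF nor C/EBPb they were 38.5%, and the remaining 28262 had no SMARCA5 peak either and are called PU.1 peaks alone.

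PU.1 is an ETS-family transcription factor that macrophages and other myeloid cells need to form. It binds DNA at purine-rich sites, can reach them in closed chromatin, and opens enhancers together with partners such as C/EBPb. SMARCA5, also known as SNF2H, is the ATPase of the ISWI chromatin remodelling complexes, which slide nucleosomes and space them evenly. CTCF, a zinc-finger protein of insulators and loop anchors, is known to depend on this remodeller for its binding.

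The cells were primary bone marrow-derived macrophages, differentiated over 7 days with 4-hydroxytamoxifen given daily to both genotypes, from Csf1r-Cre wild-type mice and from Smarca5lox/lox Csf1r-Cre knockout mice. Csf1r-Cre places the recombinase under a promoter that is active in the macrophage lineage. The series holds 4 libraries each for PU.1, CTCF and C/EBPb, with 2 per genotype, all from untreated cells. For SMARCA5 it holds 8 libraries prepared after micrococcal nuclease digestion. They are 2 per genotype from untreated cells and 2 per genotype after 2 h of lipopolysaccharide (LPS) at 10 ng/ml. The sources used here do not say which libraries entered each list. Each list is 1 consensus for the series and holds 0 columns of values per library, so genotypes and stimuli cannot be compared, and a PU.1 and a SMARCA5 peak at the same place may come from different cells or conditions. The sources used here do not give ages, or say whether replicates came from different animals.

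Each PU.1 peak carries a summit (the base of highest signal) and 2 measures of strength made by the authors. The fold enrichment is the signal over background, and the -log10 q is the peak caller's significance, which also grows with the number of reads. Neither entered the rule, which used positions alone. Peaks are not replicates, so differences between classes are given as descriptions without a test. How often a direction held over the 20 chromosomes is also a description. The chromosomes come from the same list and are not replicates of a condition.

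PU.1 peaks with SMARCA5 only were more significant and wider than PU.1 peaks alone, with almost the same median fold enrichment. Their median -log10 q was 62.9, with the middle 50% of peaks between 31.5 and 146, against 34.5 for PU.1 peaks alone (22.3 to 60.9). The median width was 461 bp against 401 bp. In contrast, the median fold enrichment was 10.8 (7.53 to 16.6) against 10.9 (8.46 to 14.7). The members were higher in -log10 q and in width on 20 of 20 chromosomes, and higher in fold enrichment on 6.

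The spread within the members was wide on every measure. Their -log10 q went from 5.44 to 1986.32 and their fold enrichment from 2.25 to 35.1. Of the members, 11.9% fell in the highest 10% of the PU.1 list by -log10 q and 7.86% in the lowest 10%, against 2.10% and 12.8% of PU.1 peaks alone. By fold enrichment 15.4% of the members were in the lowest 10% of the list and 10.4% in the highest 10%, the latter close to the share over all PU.1 peaks. Of PU.1 peaks alone, 6.32% and 5.64% lay there. The equal medians thus covered distributions of different shape.

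Other SMARCA5-bound PU.1 peaks gave a scale for these values. Those that also overlapped C/EBPb had a median -log10 q of 114, a fold enrichment of 13.9 and a width of 540 bp (n = 12266). Those that overlapped CTCF but not C/EBPb had medians of 44.9, 10.5 and 466 bp (n = 2355). The members therefore lay between PU.1 peaks alone and these C/EBPb-shared peaks in -log10 q, and close to these CTCF-shared peaks in fold enrichment and width. PU.1 peaks that overlapped C/EBPb but neither SMARCA5 nor CTCF had medians of 53.0, 12.7 and 459 bp (n = 4433). A width like that of the members was thus also found without a SMARCA5 peak.

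**Figure D1:**
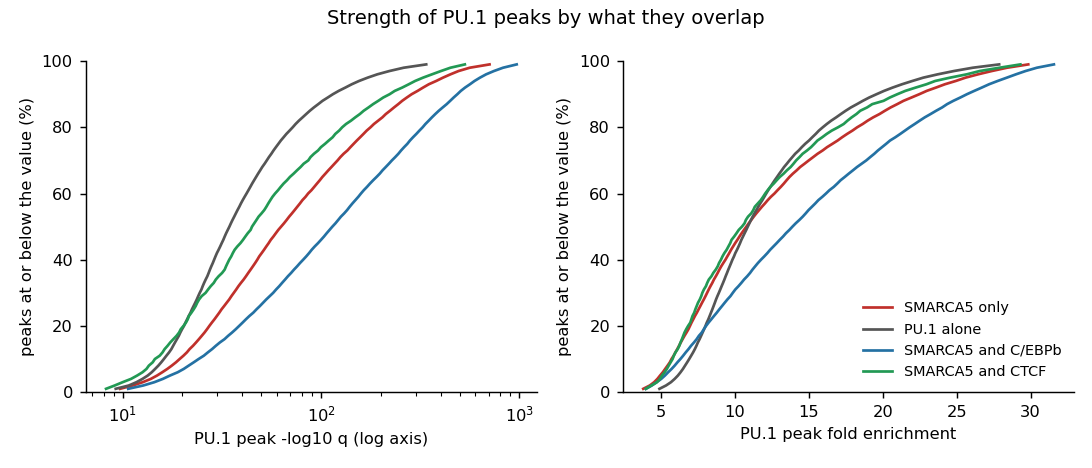
Cumulative distributions of -log10 q (left, log axis) and fold enrichment (right) of PU.1 peaks, as the percentage of peaks at or below each value, from percentile 1 to 99. By -log10 q the members (red) lie to the right of PU.1 peaks alone (grey), with medians of 62.9 and 34.5, while by fold enrichment the 2 curves cross near their medians of 10.8 and 10.9.

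At equal fold enrichment the difference in significance remained. In each of 10 equal groups of the PU.1 list by fold enrichment, the members had the higher median -log10 q, by 1.59 to 1.89 times. In the lowest group the medians were 23.9 for the members and 13.4 for PU.1 peaks alone, and in the highest 321 and 202. Median width was higher in 9 of these groups and equal, at 358 bp, in the lowest. At equal -log10 q, conversely, the members had the lower fold enrichment in 10 of 10 groups, at 0.705 to 0.871 times that of PU.1 peaks alone. Their median width was then higher in 6 groups and lower in 3, at 0.990 to 1.14 times. The largest ratio was in the lowest group, with 411 bp against 360 bp. The share of members among both classes went from 27.8% in the lowest 10% of the list by -log10 q to 78.0% in the highest 10%.

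Crowding of PU.1 peaks moved with the fold enrichment. The nearest other PU.1 summit lay at a median of 3968 bp from members' summits and 8574.5 bp from those of PU.1 peaks alone, and it was within 5 kb for 56.5% and 26.3% of them. Where it lay beyond 5 kb, the median fold enrichment of members was 14.9 (n = 7694) against 11.7 for PU.1 peaks alone (n = 20826), and they were higher on 20 of 20 chromosomes. Where it lay within 5 kb the medians were 8.77 (n = 9983) and 8.84 (n = 7436), and members were higher on 8. The near-equal medians over all peaks thus joined a higher level of isolated members with a larger share of crowded ones.

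The change with distance came mostly in a step at 5 kb. With the nearest PU.1 summit 4500 to 5000 bp away the members' median fold enrichment was 9.64, at 5000 to 5500 bp it was 12.9, and at 5500 to 6000 bp 14.5. Between 1000 and 5000 bp the medians in bins of 500 bp rose slightly, from a lowest value of 8.35 at 1500 to 2000 bp. From 5500 to 10000 bp they were 13.2 or more. PU.1 peaks alone had the same step, from 9.12 to 11.3 across 5000 bp, and their number per bin went from 796 to 1117. The members' -log10 q moved little across it, from 64.5 to 65.3, and then to 76.3. As background, MACS2, which the submitters' processing notes list, can take the background of a peak from windows around it. Where no control library is used, neighbouring peaks then enter it. The sources used here do not give the windows, and their part in these values was not tested.

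**Figure D2:**
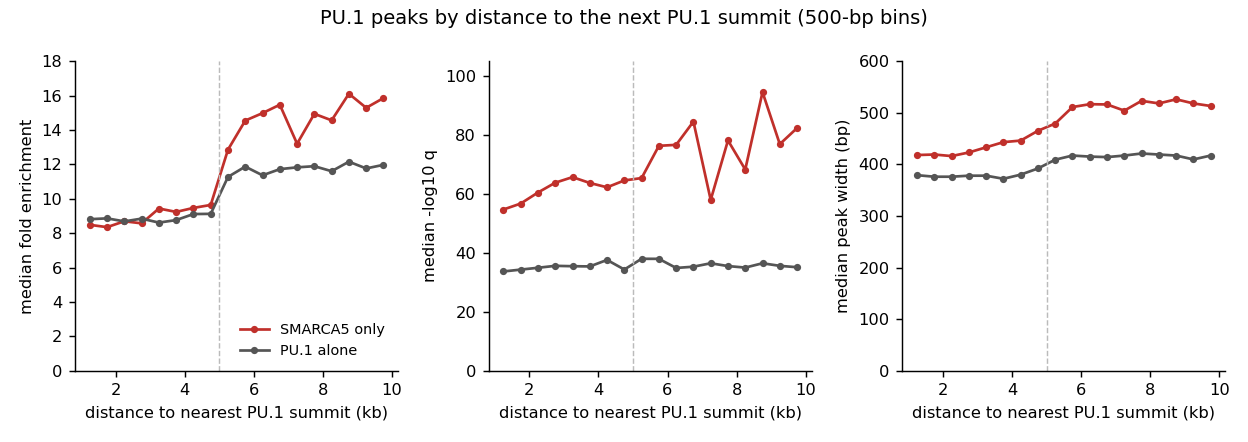
Median fold enrichment (left), -log10 q (middle) and peak width in bp (right) of members (red) and PU.1 peaks alone (grey) against the distance to the nearest other PU.1 summit in kb, in bins of 500 bp. The fold enrichment steps up at 5 kb (dashed line) in both classes, from 9.64 to 12.9 for the members, while the gap in -log10 q is present on both sides.

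SMARCA5 peaks with these PU.1 summits mostly held a single one. Of the members, 96.8% (17109) had their summit inside a SMARCA5 peak and 88.6% (15661) lay wholly inside one. These summits fell into 14892 SMARCA5 peaks, or 40.2% of the 37054 SMARCA5 peaks on the 20 chromosomes (95% Wilson interval 39.7 to 40.7), here called hosts. A single member summit was held by 86.5% of hosts, 2 by 12.2% and 3 by 1.20%, while 14 hosts held 4 to 6. Counting every PU.1 summit in the host, members or not, 67.5% had 1, 27.5% had 2 and 4.94% had 3 to 6. In the 4099 hosts with 2 PU.1 summits, the second was another member in 35.8% and a C/EBPb-shared PU.1 peak without CTCF in 52.4%.

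The hosts' median width was 3124 bp, with the middle 50% between 1971.75 and 4646 bp, and their median SMARCA5 fold enrichment was 2.07. SMARCA5 peaks with PU.1 summits but no member had medians of 2754 bp and 2.07 (n = 11516), and those with no PU.1 summit 1666 bp and 2.10 (n = 10646). Hosts were chosen for holding a summit, and a wide peak is more likely to hold one, so their greater width follows in part from the choice. The median SMARCA5 -log10 q was 3.94 for hosts, 4.38 and 3.19 for the other groups in the same order. SMARCA5 fold enrichments varied little, and the middle 50% of hosts spanned 1.98 to 2.19.

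Wider hosts held more PU.1 summits, but at lower density. In 5 equal groups of hosts by width, with medians from 1214 to 6512.5 bp, the share with 2 or more PU.1 summits was 3.63%, 15.7%, 32.2%, 45.8% and 65.1%. The number of PU.1 summits per kb of host went the other way, from 0.882 to 0.252. Since each host holds at least 1 summit by construction, the density of narrow hosts is bound to be high. The members' median -log10 q was 68.1 in the narrowest group and between 62.0 and 64.0 in the other 4, and their median fold enrichment went from 12.7 to 9.24.

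**Figure D3:**
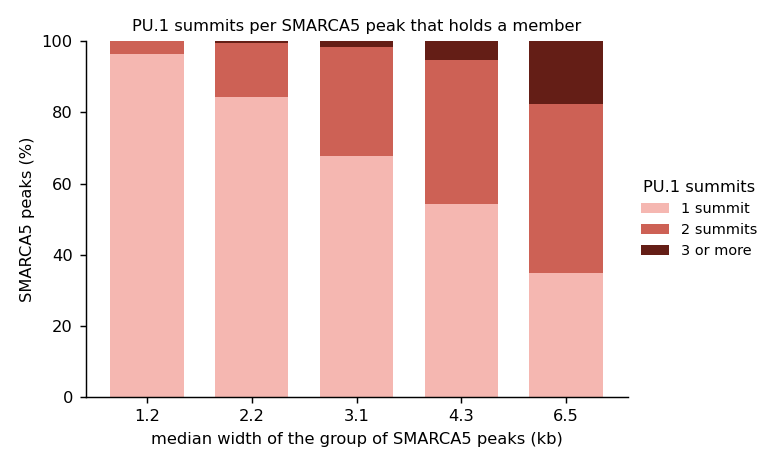
Share of hosts (SMARCA5 peaks with at least 1 member summit) that held 1, 2 or at least 3 PU.1 summits, in 5 equal groups by host width, labelled by median width in kb. The share with a single summit goes from 96.4% in the narrowest group to 34.9% in the widest.

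Members that were the only PU.1 summit of their host had a higher median fold enrichment than those that shared it. Their median was 13.3 (n = 10057), against 8.97 with 2 PU.1 summits in the host (n = 5565), 7.27 with 3 (n = 1247) and 6.66 with 4 or more (n = 240). Median -log10 q was 71.7, 55.7, 57.8 and 60.1 in the same order, and median width 497, 417, 392 and 382.5 bp. Within each of the 5 width groups, members that were single had a median fold enrichment of 12.9 to 13.6 and those in hosts with 2 summits 8.87 to 9.07. The distance to the nearest PU.1 summit, in or outside the host, differed between these groups too. Where it was within 5 kb, the median was 9.55 for single members (n = 2829) and 8.52 in hosts with 2 or more PU.1 summits (n = 6820). Where it was beyond 5 kb, the medians were 15.1 (n = 7228) and 11.3 (n = 232), so that crowded single members were below isolated members of hosts with several summits. The part of the distance in the difference was not tested.

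PU.1 strength of members and the SMARCA5 fold enrichment of their hosts were weakly related. Across 17109 members, the rank correlation of the host's SMARCA5 fold enrichment with PU.1 -log10 q was 0.0485 and with PU.1 fold enrichment 0.182 (Spearman's rho across peaks, given as a description). Among single members they were 0.0568 and 0.145. Members of the same host share its SMARCA5 value.

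PU.1 summits lay toward the middle of their hosts when they were alone there. Of all member summits inside a host, 60.6% (59.8 to 61.3) were in its inner 50%, so that 50% would mean even placement. Single members had 66.3% there (65.4 to 67.2), those with 2 PU.1 summits in the host 53.0% (51.7 to 54.4) and those with 3 49.6% (46.8 to 52.3). The share over all members was between 57.7% and 62.9% on each of the 20 chromosomes, with a mean of 60.7% ± 1.56 (SD, n = 20 chromosomes). Left and right on the reference were balanced, with 49.7% of summits in the first 50% of the host.

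In base pairs, the summit of a single member lay at a median of 397.5 bp from the centre of its host and 695.5 bp from the nearest edge. Of single members, 34.8% were within 250 bp of the centre and 12.7% within 250 bp of an edge. Of 10 equal parts of the host, the outermost held 3.91% and 3.82% of single summits, and the central ones 14.1% and 15.0%. With 2 or more PU.1 summits in the host the profile was nearly flat, between 10.0% and 11.2% in each part apart from the outermost, which held 7.47% and 7.54%. Single summits were central in hosts of every width, though less so in the widest, with 68.5% in the inner 50% of the narrowest group and 60.4% in that of the widest.

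**Figure D4:**
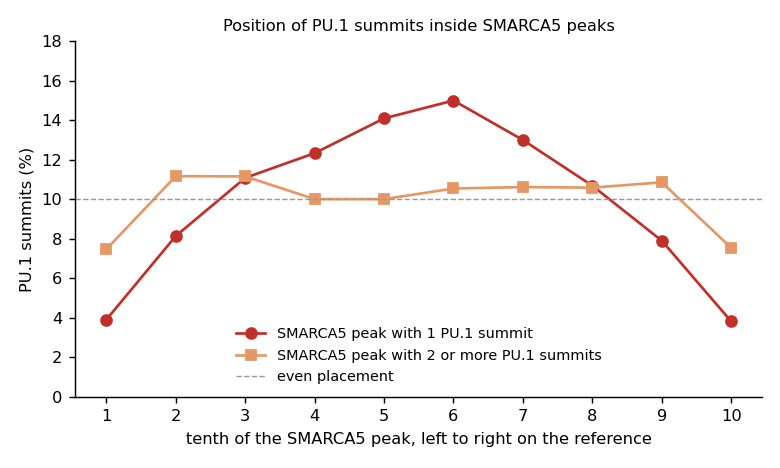
Percentage of member summits in each of 10 equal parts of the host, from left to right on the reference, for hosts with 1 PU.1 summit and with 2 or more; the dashed line is the 10% of even placement. Single summits form a peak of 14.1% and 15.0% in the central parts, and the other profile is nearly flat.

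Stronger members were more central. The inner 50% held 69.7% of the strongest 10% of members by fold enrichment (67.4 to 71.8) and 56.0% of the weakest 10% (53.7 to 58.4). By -log10 q the shares were 65.2% and 60.4%. Single members gave 71.4% and 59.8% by fold enrichment, and 69.8% and 64.0% by -log10 q. PU.1 peaks shared with C/EBPb in SMARCA5 peaks lay more centrally than the members, at 68.1% (67.3 to 68.9), and at 72.4% against 66.3% where they were the only PU.1 summit. Those shared with CTCF were at 62.9% (60.9 to 64.8), and at 66.5% as the only PU.1 summit, close to the members.

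Where 2 PU.1 summits shared a host, they lay at a median spacing of 1464 bp (4099 hosts), with the middle 50% between 972 and 2223 bp. The shortest spacing was 436 bp, and peaks of 1 list did not overlap, so summits closer than about a peak width cannot be seen. The stronger of the pair by -log10 q was nearer the centre in 52.5% (51.0 to 54.1), little more than even. In the 2149 hosts that paired a member with a C/EBPb-shared PU.1 peak, the member was the weaker by -log10 q in 59.3% (57.2 to 61.3) and by fold enrichment in 58.4%.

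Many hosts held C/EBPb or CTCF elsewhere, although the members themselves overlapped neither. A C/EBPb peak was present in 31.4% of hosts, a CTCF peak in 15.6% and both in 6.81%, which left 59.8% (8912) with neither. The nearest C/EBPb summit was at a median of 6252 bp from a member, and within 1000 bp of 9.01% of members, against 16275 bp and 2.06% for PU.1 peaks alone. For CTCF the medians were 15479 and 23237 bp. In hosts free of both, the members' medians were 12.1 for fold enrichment and 66.1 for -log10 q (n = 10089), and in the others 9.39 and 60.9 (n = 7020). Their hosts differed in width, with medians of 2434.5 and 4301 bp. In single-summit hosts the medians were closer, at 13.4 against 12.6 for fold enrichment and 72.4 against 67.8 for -log10 q. There the inner 50% held 68.5% of members where neither factor was present and 58.7% where at least 1 was.

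PU.1 significance dropped across the edge of the SMARCA5 peak. Among PU.1 peaks without CTCF or C/EBPb, the median -log10 q was 63.6 to 66.7 for summits more than 250 bp inside, and 55.9 within 250 bp of the edge. It was 44.5 for summits up to 250 bp outside, of which 546 of 605 still overlapped the SMARCA5 peak, and 32.7 between 250 and 1000 bp outside. Farther out it was 40.9 at 1000 to 2000 bp and then lower, to 31.8 beyond 50000 bp. Fold enrichment was lowest at 250 to 500 bp outside, at 8.29, and was 11.4 both beyond 50000 bp and at 500 to 1000 bp inside. Few PU.1 peaks alone were close to the rule's border, since their median gap to a SMARCA5 peak was 13882 bp and 1.40% lay within 500 bp. At the border itself, the 67 members that shared 1 to 50 bp with a SMARCA5 peak had medians of 32.1 for -log10 q and 9.26 for fold enrichment. The 58 PU.1 peaks alone that ended 1 to 50 bp outside one had 27.7 and 8.41.

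**Figure D5:**
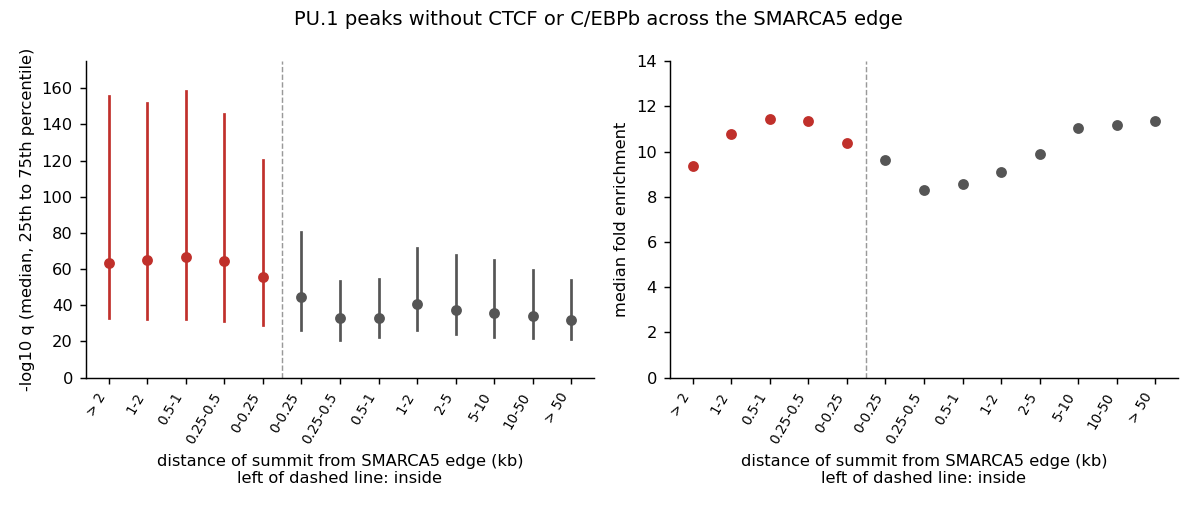
PU.1 peaks without CTCF or C/EBPb by distance of the summit from the nearest SMARCA5 edge in kb, inside (red) and outside (grey) of it: -log10 q on the left (point, median; line, 25th to 75th percentile) and median fold enrichment on the right. The median -log10 q goes from 55.9 just inside to 44.5 just outside and 32.7 beyond 250 bp, and the fold enrichment has its lowest value, 8.29, at 250 to 500 bp outside.

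Members were found on every chromosome in similar proportion. They made up between 23.9% of PU.1 peaks on chromosome 6 and 28.4% on chromosome 11. Their density ranged from 2.59 per Mb on chromosome X to 10.98 on chromosome 11, with a mean of 7.06 ± 1.74 (SD, n = 20 chromosomes). Chromosome X also had the lowest median -log10 q of members, 47.4, where the mean over chromosomes was 62.5 ± 4.25. PU.1 peaks alone on X were at 34.5, as over the genome. The members' fold enrichment on X, 10.8, was like that elsewhere.

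Of the 10 members ranked in the first 5 by either measure, 9 were the only PU.1 summit of their host. Over all members with the summit in a host the share was 58.8%. Of the strongest 10% of members, 1580 of 1711 by fold enrichment and 1186 of 1711 by -log10 q were single. By fold enrichment the first was on chromosome 1 from 55458017 to 55458623 (mm39), at 35.1 with a -log10 q of 1339.05, and its summit stood at 32.7% of the length of a SMARCA5 peak of 3640 bp. The next 4 lay on chromosome 9 from 104849956 to 104850522, chromosome 15 from 5901475 to 5902044, chromosome 14 from 70639751 to 70640350 and chromosome 1 from 138385803 to 138386339, at 34.0 to 34.7. A C/EBPb peak was present in the host on chromosome 15, without overlapping the member, and the other 4 hosts had neither factor.

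By -log10 q the first was on chromosome 19 from 5341496 to 5342069, at 1986.32 with a fold enrichment of 32.8. It was followed by peaks on chromosome 7 from 43041683 to 43042290, chromosome 2 from 60118913 to 60119458, chromosome 7 from 25476024 to 25476658 and chromosome 3 from 89818368 to 89819050, at 1479.97 to 1536.71. The 2 peaks on chromosome 7 stood almost exactly in the middle of their SMARCA5 peaks, at 49.2% and 49.9% of the length. The host on chromosome 3, 7156 bp wide, was the only 1 of the 5 with a second PU.1 summit, and it also held a CTCF and a C/EBPb peak.

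The 3 hosts with the most members, with ties broken by SMARCA5 fold enrichment, were 10395 to 31347 bp long and held members of mixed strength. A SMARCA5 peak of 31347 bp on chromosome 4 from 134953271 to 134984617 held 6 member summits and no other PU.1 summit, with fold enrichments from 6.95 to 15.2 and -log10 q values from 31.1 to 132.54. On chromosome 19 from 37211038 to 37228656 there were 5 members, 1 of which had a -log10 q of 357.96 and a fold enrichment of 22.3, while the others were between 36.1 and 52.8 and between 6.59 and 9.39. On chromosome 7 from 15776943 to 15787337 there were 5 members among 6 PU.1 summits, with fold enrichments of 2.64 to 8.73 and -log10 q values of 13.5 to 144.75. Each of these 3 hosts also held 1 CTCF peak and at least 1 C/EBPb peak. The 3 hosts with the highest SMARCA5 fold enrichment were narrower, at 888 to 2942 bp, and held a single PU.1 summit and neither factor. They lay on chromosome 7 from 103410429 to 103413370, chromosome 3 from 153883110 to 153884159 and chromosome 2 from 17936281 to 17937168, at SMARCA5 values of 3.52, 3.43 and 3.31. Their members had PU.1 fold enrichments of 18.9, 29.3 and 15.5. Both traits go with host width. From the narrowest to the widest of the 5 width groups, the share with 1 PU.1 summit went from 96.4% to 34.9%. The share with neither factor went from 91.9% to 27.6%.

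The authors' peak scores differed in their decimals between classes. A score with a decimal part of 0.25 or 0.75 was found for 40.7% of members (39.9 to 41.4), 29.5% of PU.1 peaks alone (29.0 to 30.0) and 45.9% of C/EBPb-shared peaks with SMARCA5. In the lowest 10% of the PU.1 list by -log10 q the shares were 17.1% of members and 8.51% of PU.1 peaks alone, and in the highest 10% they were 49.7% and 51.7%. The sources used here do not say how the scores were made.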

How the data were processed

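The material was 4 consensus peak lists deposited by the authors, for PU.1, CTCF, C/EBPb (narrow peaks) and SMARCA5 (broad peaks), with 161134 peaks in all. STAR 2.7.9a, Picard 2.27.4, MACS2 2.2.7.1, deepTools 3.5.1 and build mm39 are named, per the submitters' processing notes, without role or order. The sources used here do not give the rule for a consensus peak or how replicates were treated. The deposited ratio is the authors' fold enrichment, the deposited -log10 value is their q, and the deposited score, divided by 10, was within 0.11 of the -log10 q for all peaks but 1, a C/EBPb peak. Units follow the peak format, since the files have no header. Read depth is unknown.

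Overlap meant at least 1 shared bp. Python 3.11.15, NumPy 2.4.6, pandas 2.3.3 and SciPy 1.17.1 were used, and plots were drawn with matplotlib 3.10.9. The overlap steps were tested on simulated data. A host holds the member's summit, and its position was counted from the left edge. Intervals are 95% Wilson intervals and cover counting error only, as neighbouring peaks are not independent. Regions named are the 5 members highest by fold enrichment, the 5 highest by -log10 q, and the 3 hosts with the most members and the 3 with the highest SMARCA5 fold enrichment. The members, classes and measures were chosen with earlier results of these data known. The split by distance to the next PU.1 summit was added after its values were seen. Coordinates are 1-based on mm39. The gene and promoter tables at hand are on GRCm38.p6, so genes, sequences and motifs at the peaks were not analysed here.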

Additional observations from a re-analysis of the deposited data

How the results depend on the processing

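Ratios here are members' medians over those of PU.1 peaks alone. The width ratio of 1.15 stayed above 1 in 10 of 10 alternatives and the inner share of 60.6% above 50% in 10 of 10. These counts, and those of the fold enrichment ratio that follow, include alternatives that could not move the value, named below. The fold enrichment ratio of 0.991 was below 1 in 4 of 9 alternatives and above it in 5, not counting the filter on fold enrichment itself. The ratio of -log10 q in its place was 1.82. With SMARCA5 peaks over 5 kb left out, the ratio of fold enrichment was 1.04, that of width 1.17, the share of hosts with 2 or more PU.1 summits 24.0% (from 32.5%) and the inner share 62.1%. With the upper 50% of SMARCA5 peaks by fold enrichment there were 8134 members, with 1.10, 1.17, 25.03% and 62.5% in the same order. With the upper 50% of PU.1 peaks by fold enrichment there were 8250, with 1.13, 1.16, 4.96% and 63.7%, of which the first says nothing on fold enrichment, since both classes were filtered on it. With no CTCF or C/EBPb peak in the whole SMARCA5 peak there were 10463, with 1.10, 1.19, 12.2% and 65.5%. With neither within 500 bp, 30.2% of hosts had 2 or more PU.1 summits. With the nearest PU.1 summit beyond 5 kb, an alternative chosen after seeing the data, the values were 1.27, 1.25, 2.44% and 65.8%. The number of members falls by construction where peaks are removed. Second PU.1 summits are also lost by construction in 3 of these alternatives. The upper 50% of PU.1 peaks drops the weaker summits, and the limit of 5 kb drops members with near neighbours. With no CTCF or C/EBPb peak in the SMARCA5 peak, hosts that hold a summit shared with either leave. Leaving out SMARCA5 peaks over 5 kb takes out the widest of the 5 width groups of hosts, all 5086 bp or wider. In that group 65.1% of hosts had 2 or more PU.1 summits. The cause of the other changes was not tested. Overlap of 50% of the PU.1 peak, the summit inside the SMARCA5 peak, removal of -log10 q above 2000 and autosomes only moved none of these 5 values beyond its interval, or the count by over 1.5 times. Part of this was fixed in advance. The highest -log10 q was 1986.32 in members and 1245.29 in PU.1 peaks alone, so removal above 2000 took none of either. It could thus not move the count, the ratios or the inner share. The shares of hosts and inner summits already used only summits inside a SMARCA5 peak. Requiring this therefore left both unchanged. No paired analysis was possible because each protein has 1 list without values per library. Depth is unknown, so a PU.1 peak without SMARCA5, CTCF or C/EBPb may lack only a called peak.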
